A study of Rattus norvegicus with 6 samples.

Results

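The collagen gene family was examined in repaired rat liver, taken on day 14 after trauma treated with a dressing that stops bleeding. The treatment named AKOC, whose letters no label spells out, was set against Quik-clot, a haemostatic product on the market, as the control, with 3 libraries of total RNA each. The title of the series speaks of cotton that carries anchored kaolin, and its stated question is the chronic inflammation left by each treatment. No uninjured liver was included, and strain, sex, age and genotype are not labelled. Since no label ties a library to an animal of its own, the p-values cover only the variation among these libraries, part of which may be technical. The family was taken as every protein-coding row of the count table whose symbol has the form of Col, a number, a and a number. That rule found 41 genes among 20104.

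Collagens are the main structural proteins of the extracellular matrix. Their chains, rich in glycine and proline, wind around each other into a helix, and the assembled molecules differ in what they build. Fibrillar collagens form the cable-like fibres of scars and vessel walls, basement membrane collagens form sheets under epithelium and endothelium, and network collagens of short chains form lattices. FACIT collagens, the fibril-associated ones with interrupted helices, sit on the surface of fibrils. In injured liver, collagen is made largely by hepatic stellate cells and portal fibroblasts, which turn into myofibroblasts, and a scar is remodelled by proteases afterwards.

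By class the 41 genes comprised 10 fibrillar, 6 basement membrane, 2 network and 8 FACIT collagens, and 15 outside these classes. The latter were 6 beaded filament chains (type VI), 2 multiplexins, 4 transmembrane collagens, the anchoring fibril collagen Col7a1 and 2 others. The libraries held 40402312 to 41455378 counts. Levels are given as CPM, a gene's share of a library's counts after TMM scaling, and comparisons between genes as FPKM, which also divides by gene length. The 6 hepatocyte markers, which check the labelled tissue, summed to between 101308 and 175691 CPM in each library. In bulk tissue, fewer cells of a type and less RNA per cell cannot be told apart.

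Of the 41 collagen genes, 12 had at least 10 counts in fewer than 3 libraries and were not tested. These were Col4a6, Col5a3, Col6a4, Col7a1, Col9a2, Col9a3, Col11a1, Col17a1, Col19a1, Col23a1, Col26a1 and Col28a1. Their summed counts over the 6 libraries ran from 1 (Col6a4, Col19a1 and Col26a1) to 57 (Col11a1). Just inside the filter lay Col24a1, Col20a1, Col15a1 and Col6a5, each with at least 10 counts in 4 libraries. Just outside it was Col11a1, a cartilage-type fibrillar chain, which reached 10 counts in 2 libraries. Its counts were 9, 12 and 30 in Quik-clot replicates 1, 2 and 3 and 0, 3 and 3 in the AKOC replicates, so the groups did not overlap. Col5a3, the next highest, had 1, 18 and 9 counts after Quik-clot and 2, 3 and 8 after AKOC, with overlap. No row of the count table carried the symbol Col2a1, Col9a1, Col10a1 or Col21a1, so these chains were not analysed here.

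Between the dressings, the smallest p-values of the family belonged to Col8a1, Col14a1, Col25a1, Col4a1 and Col4a2, with higher mean levels after AKOC, and to Col4a3, with a lower one. No collagen gene passed the adjusted threshold of the edgeR quasi-likelihood test (Benjamini-Hochberg over all 13872 genes tested), with 0 higher and 0 lower among the 29 tested. Over all genes 0 passed as well, which is 0.0%, and 1731 genes (12.5%) had an unadjusted p under 0.05. At an unadjusted p under 0.05, 5 collagen genes were higher, 17.2% of those tested against 6.78% of all genes. A single one was lower, 3.4% against 5.69% of all genes. The lowest adjusted p of a member was 0.296.

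DESeq2 called 280 of 13837 genes (2.02%) and limma-voom 0, with 0 collagen genes in either. The count of 5 higher was 3 without Quik-clot replicate 1, 3 without AKOC replicate 2 and 1 without AKOC replicate 3. Of the 29 tested genes, 17 (58.6%) had a positive log2 fold change, AKOC over Quik-clot, against 48.0% of all genes, and 12 (41.4%) a negative one against 52.0%. The median was 0.06 for the family and -0.01 over all genes. In 4 members every AKOC library lay above every Quik-clot library, 13.8% against 9.53% of all genes, and in 1 every AKOC library lay below, 3.4% against 8.84%. In either direction this held for 18.4% of all genes.

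**Figure D1:**
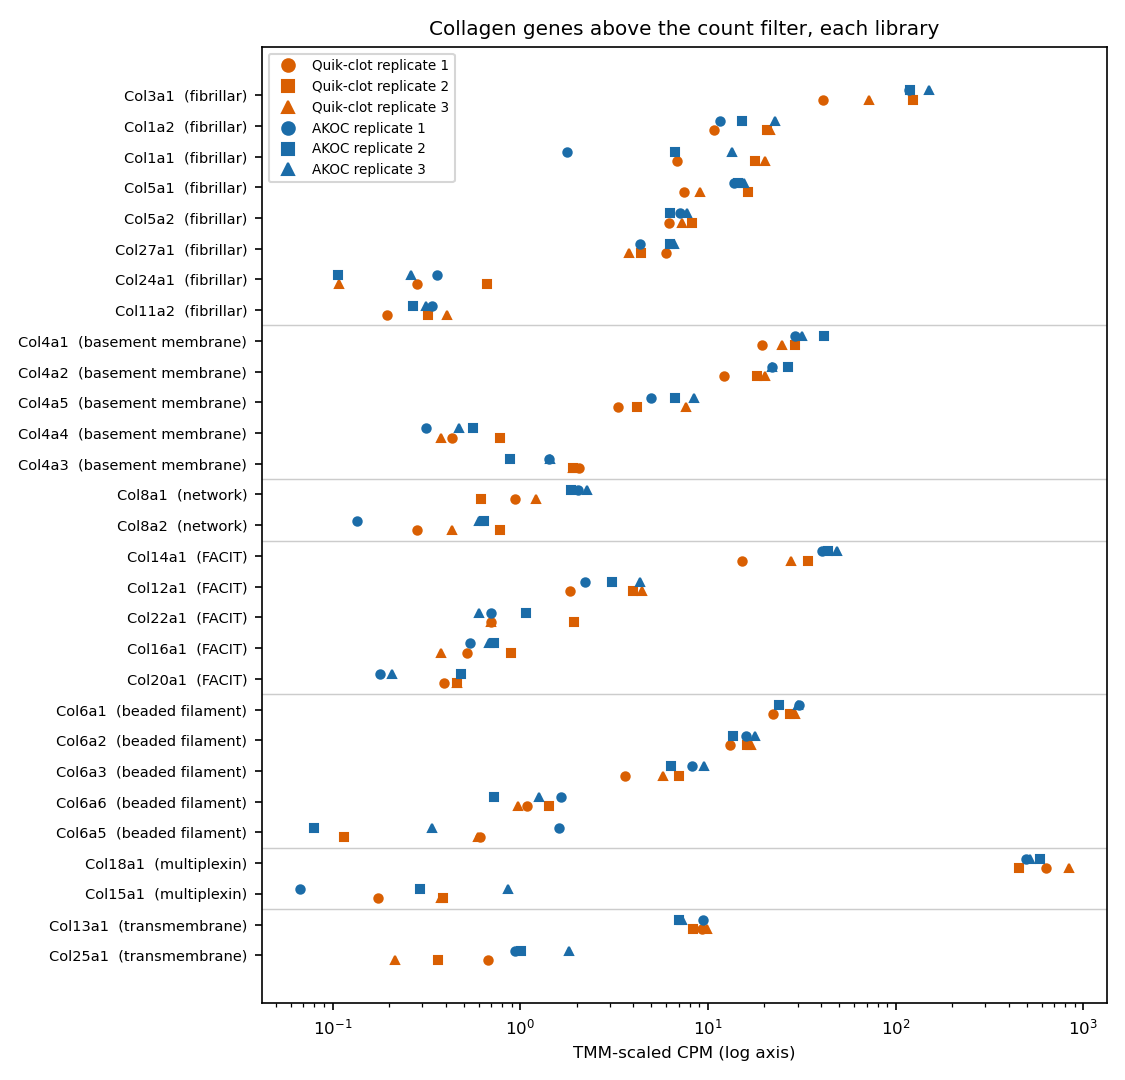
TMM-scaled CPM (log axis) of the 29 collagen genes above the count filter in each of the 6 libraries, grouped by class and ordered within a class by mean FPKM. Colours mark the dressing and symbols the replicate. Col18a1 lies far to the right at 455 to 834 CPM, and the AKOC symbols of Col8a1, Col14a1, Col25a1 and Col4a2 all lie right of the Quik-clot symbols.

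The fibrillar class was the most abundant apart from the multiplexins. Its summed FPKM was 16.7, 40.2 and 23.7 in Quik-clot replicates 1, 2 and 3 and 33.4, 29.9 and 40.6 in the AKOC replicates. The groups overlapped, because Quik-clot replicate 2 lay nearly as high as the highest AKOC library. Of 8 fibrillar genes tested, 4 had positive and 4 negative log2 fold changes, where Col11a2 turned negative with DESeq2 and with library totals, the median was -0.01, and 0 had an unadjusted p under 0.05 in either direction.

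Col3a1 (gene ID 84032) encodes the chain of type III collagen, the reticular fibre of the liver. It stood at 41.1, 123 and 71.7 CPM in Quik-clot replicates 1, 2 and 3 and at 118, 119 and 149.6 CPM in the AKOC replicates. Only Quik-clot replicate 2 reached the AKOC range, and the AKOC libraries varied less, with a coefficient of variation of 13.9% against 52.7%. The log2 fold change was 0.71 ± 0.36 (SE; unadjusted p = 0.0844, adjusted p = 0.444 in edgeR). Without Quik-clot replicate 2 it was 1.19, the highest of the values with 1 library left out, and without Quik-clot replicate 1 it was 0.40, the lowest.

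Col1a1 and Col1a2 encode the chains of type I collagen, which joins a pair of alpha-1 chains with a single alpha-2 chain. Col1a1 (gene ID 29393) stood at 6.83, 17.8 and 20.2 CPM after Quik-clot and at 1.77, 6.65 and 13.4 CPM after AKOC. Col1a2 (gene ID 84352) stood at 10.8, 20.7 and 21.5 CPM after Quik-clot and at 11.6, 15.2 and 22.9 CPM after AKOC. AKOC replicate 1 was thus the lowest of the 6 libraries in Col1a1 but not in Col1a2, and the dressings overlapped in both genes. The log2 fold changes were -1.04 ± 0.69 for Col1a1 (adjusted p = 0.552 in edgeR) and -0.09 ± 0.33 for Col1a2 (adjusted p = 0.917 in edgeR). For Col1a1 the value ran from -1.83 without AKOC replicate 3 (unadjusted p = 0.0326) to -0.57 without AKOC replicate 1.

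The proportions of chains, within a molecule and between types III and I, were set side by side per length. The ratio of Col1a1 to Col1a2 FPKM was 0.486, 0.660 and 0.721 in Quik-clot replicates 1, 2 and 3 and 0.118, 0.335 and 0.450 in the AKOC replicates. All 3 AKOC ratios lay below all 3 Quik-clot ratios, with means of 0.301 ± 0.169 and 0.622 ± 0.122 (SD, n = 3 each), and the 6 values spanned 6.13-fold. The ratio of Col3a1 to Col1a2 was 3.57, 5.56 and 3.13 after Quik-clot and 9.54, 7.36 and 6.12 after AKOC, again without overlap. With Col1a1 as the divisor it was 7.35, 8.44 and 4.34 after Quik-clot and 81.1, 21.9 and 13.6 after AKOC, also without overlap. The ratios among Col1a1, Col1a2 and Col3a1 share genes, so they are not separate observations.

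For the type VI chains Col6a1 and Col6a2, the ratio ran from 2.17 to 2.43 over all 6 libraries, a 1.12-fold span. Col6a3 to Col6a1 was less steady, at 0.0612, 0.0954 and 0.0739 after Quik-clot and 0.0999, 0.0989 and 0.118 after AKOC. Those values did not overlap and spanned 1.92-fold. The ratio of Col4a1 to Col4a2 ran from 1.18 to 1.54, a 1.30-fold span. That of Col5a1 to Col5a2 ran from 0.887 to 1.71, a 1.93-fold span in which the groups overlapped. The ratios were not tested, and a ratio shows unequal change and not which of the chains moved. How often the ratio of other gene pairs separates the dressings was not determined.

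**Figure D2:**
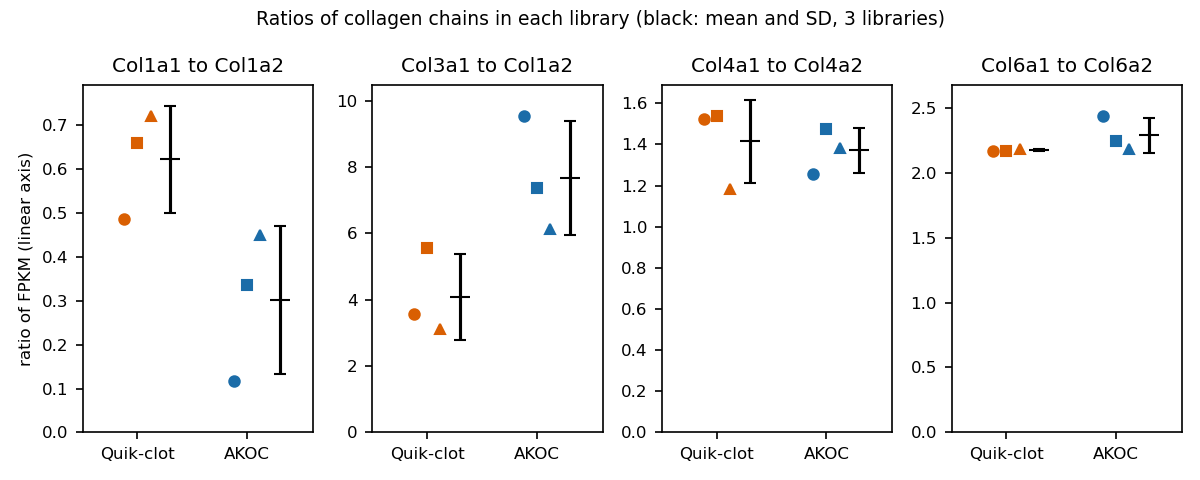
Ratios of deposited FPKM between collagen chains in each library (linear axes from 0), with circles, squares and triangles for replicates 1, 2 and 3 and black bars for the mean and SD of 3 libraries. The Col1a1 to Col1a2 ratio separates the dressings (0.486 to 0.721 against 0.118 to 0.450) and the Col6a1 to Col6a2 ratio stays between 2.17 and 2.43.

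Type V collagen, whose chains Col5a1 and Col5a2 help start and limit type I fibrils, had fold changes within the spread between libraries. Col5a1 stood at 7.42, 16.3 and 9.02 CPM after Quik-clot and at 13.8, 14.5 and 15.6 CPM after AKOC, with a log2 fold change of 0.42 ± 0.28 (adjusted p = 0.557 in edgeR). The highest library was again Quik-clot replicate 2, so the groups overlapped. With 1 library left out the log2 fold change of Col5a1 ran from 0.21 to 0.83. Only without Quik-clot replicate 2 was its unadjusted p then under 0.05 (0.0014 in edgeR). Col5a2 ran from 6.22 to 8.18 CPM over all 6 libraries, with a log2 fold change of -0.04 ± 0.16. The remaining fibrillar genes tested were Col27a1 (3.81 to 6.57 CPM), Col24a1 (0.107 to 0.665 CPM) and Col11a2 (0.196 to 0.405 CPM), with log2 fold changes of 0.27 ± 0.24, -0.53 ± 0.74 and 0.01 ± 0.47.

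Type IV collagen of most basement membranes is made of Col4a1 and Col4a2 chains, while Col4a3, Col4a4 and Col4a5 form the type IV network best known from kidney and lung. Summed FPKM of the class was 6.76, 9.52 and 7.84 after Quik-clot and 9.82, 11.0 and 9.65 after AKOC, so every AKOC library lay above every Quik-clot library. Of 5 genes tested, 3 had positive and 2 negative log2 fold changes, and the median of 0.42 was 0.0785 with DESeq2, where Col4a6 entered.

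Col4a1 and Col4a2 are transcribed in opposite directions from neighbouring starts. In the RefSeq promoter table of the GRCr8 build, their starts lay 77 bases apart on chromosome 16, and the 76 bases between them are shown because both genes share them. They run 5′ to 3′ on the plus strand, in the direction of Col4a1, from chr16:84885521-84885596.
Col4a1 and Col4a2 shared stretch: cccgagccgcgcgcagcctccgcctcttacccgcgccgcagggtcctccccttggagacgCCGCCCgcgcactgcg
Capitals mark the only match to the GC box GGGCGG, on the reverse strand as CCGCCC. Neither CCAAT nor TATAAA was found in the stretch on either strand. In windows of the same length before all 33469 starts in the table, the GC box occurred in 18.1%, CCAAT in 13.0% and TATAAA in 4.6%. The stretch was 78.9% G and C. For the other pairs of type IV genes the starts lay 413 bases apart (Col4a3 and Col4a4, chromosome 9) and 1415 bases apart (Col4a5 and Col4a6, chromosome X). A motif match is a description of letters and not a site of binding.

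Both genes had higher means after AKOC. Col4a1 (gene ID 290905) stood at 19.4, 29.2 and 24.8 CPM after Quik-clot and at 29.0, 41.4 and 31.6 CPM after AKOC. Col4a2 (gene ID 306628) stood at 12.2, 18.2 and 20.1 CPM after Quik-clot and at 22.0, 26.8 and 21.8 CPM after AKOC. The groups did not overlap in Col4a2, and in Col4a1 Quik-clot replicate 2 lay just above AKOC replicate 1. The log2 fold changes were 0.47 ± 0.19 and 0.49 ± 0.20 (unadjusted p = 0.0438 and 0.0437, adjusted p = 0.391 for both in edgeR). With 1 library left out they ran from 0.30 to 0.62 for Col4a1 and from 0.30 to 0.64 for Col4a2. The unadjusted p was then under 0.05 in 2 of 6 cases for Col4a1 (0.0193 to 0.16) and in 1 of 6 for Col4a2 (0.0198 to 0.142).

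Col4a3 (gene ID 363265) had its lower values after AKOC. It stood at 2.05, 1.90 and 1.92 CPM after Quik-clot and at 1.41, 0.881 and 1.43 CPM after AKOC, so the groups did not overlap. The log2 fold change was -0.65 ± 0.27 (unadjusted p = 0.0435, adjusted p = 0.391 in edgeR), and the unadjusted p lay between 0.0528 and 0.122 whichever library was left out. Its neighbour Col4a4 was low and overlapped, at 0.435, 0.779 and 0.378 CPM after Quik-clot and at 0.314, 0.561 and 0.469 CPM after AKOC, with a log2 fold change of -0.26 ± 0.45. The deposited FPKM imply a transcript length of 1152 bases for Col4a4 against 8242 for Col4a3, so levels of these chains are not set side by side per length. Col4a5 overlapped, at 3.33, 4.19 and 7.59 CPM after Quik-clot and at 4.98, 6.70 and 8.47 CPM after AKOC (log2 fold change 0.42 ± 0.34).

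The network class held the member with the smallest p. Col8a1 (gene ID 304021), which encodes a short chain of type VIII collagen known from vessel walls and from the basement membrane of the cornea, had 43, 27 and 45 counts in Quik-clot replicates 1, 2 and 3 and 91, 70 and 87 in the AKOC replicates. As CPM these were 0.936, 0.619 and 1.22 after Quik-clot and 2.04, 1.87 and 2.27 after AKOC. All 3 AKOC libraries lay above all 3 Quik-clot libraries, at a mean of 2.06 ± 0.200 against 0.924 ± 0.299 CPM (SD, n = 3 each). The log2 fold change was 1.16 ± 0.30, or 2.23-fold (unadjusted p = 0.00613, adjusted p = 0.296 in edgeR). The adjusted p was 0.0578 in DESeq2, and the unadjusted p stayed under 0.05 in each of 9 alternatives that could be fitted and with any library left out, where the log2 fold change ran from 0.94 to 1.40. Its partner Col8a2 overlapped, at 0.283, 0.779 and 0.432 CPM after Quik-clot and at 0.135, 0.641 and 0.600 CPM after AKOC (log2 fold change -0.14 ± 0.65).

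The promoter of Col8a1 is shown because this gene had the smallest p of the family. The 250 bases before its start in the RefSeq table run 5′ to 3′ on the plus strand, in GRCr8 chr11:56246532-56246781.
Col8a1 upstream stretch: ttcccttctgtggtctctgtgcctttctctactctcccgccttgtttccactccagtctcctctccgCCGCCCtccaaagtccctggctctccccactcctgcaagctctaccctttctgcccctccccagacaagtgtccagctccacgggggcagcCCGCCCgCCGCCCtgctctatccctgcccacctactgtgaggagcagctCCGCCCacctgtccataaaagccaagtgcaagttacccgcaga
Capitals mark 4 matches to the GC box, all on the reverse strand as CCGCCC, and neither CCAAT nor TATAAA occurred on either strand. Promoters were found in the table for 33 of the 41 collagen genes. Over the 250 bases before the start, 57.6% of these 33 held GGGCGG on either strand against 30.5% of all 33469 promoters, 30.3% held CCAAT against 34.0%, and 9.1% held TATAAA against 12.9%. The median share of G and C was 59.2% in the collagen promoters and 51.2% in all.

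Of the 5 FACIT genes tested, 2 had positive and 3 negative log2 fold changes, with a median of -0.10. Summed FPKM of the class was 2.90, 6.192 and 4.15 after Quik-clot and 6.69, 6.190 and 7.26 after AKOC. The groups overlapped only through replicate 2 of each dressing, and most of the sum was Col14a1 (mean 4.96 FPKM). Col14a1 (gene ID 314981), which encodes a collagen that coats fibrils and limits their growth, stood at 15.2, 34.3 and 27.7 CPM after Quik-clot and at 40.4, 43.4 and 48.97 CPM after AKOC. The groups did not overlap, and the AKOC libraries varied by 9.85% against 37.6% (coefficients of variation). The log2 fold change was 0.78 ± 0.27 (unadjusted p = 0.0236, adjusted p = 0.359 in edgeR), and it ran from 0.51 to 1.04 with 1 library left out. Without AKOC replicate 3 the unadjusted p was 0.061.

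The other FACIT genes overlapped between dressings. Col12a1, another coat protein of type I fibrils, stood at 1.85, 3.99 and 4.43 CPM after Quik-clot and at 2.20, 3.07 and 4.33 CPM after AKOC (log2 fold change -0.10 ± 0.38). Col22a1 was at 0.696, 1.93 and 0.702 CPM and at 0.696, 1.07 and 0.600 CPM (-0.50 ± 0.49). Col16a1 was at 0.522, 0.894 and 0.378 CPM and at 0.539, 0.721 and 0.678 CPM (0.10 ± 0.41). Col20a1 ran from 0.180 to 0.481 CPM over all 6 libraries, with a log2 fold change of -0.60 ± 0.50. In each of these genes the difference lay within the spread between libraries.

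**Figure D3:**
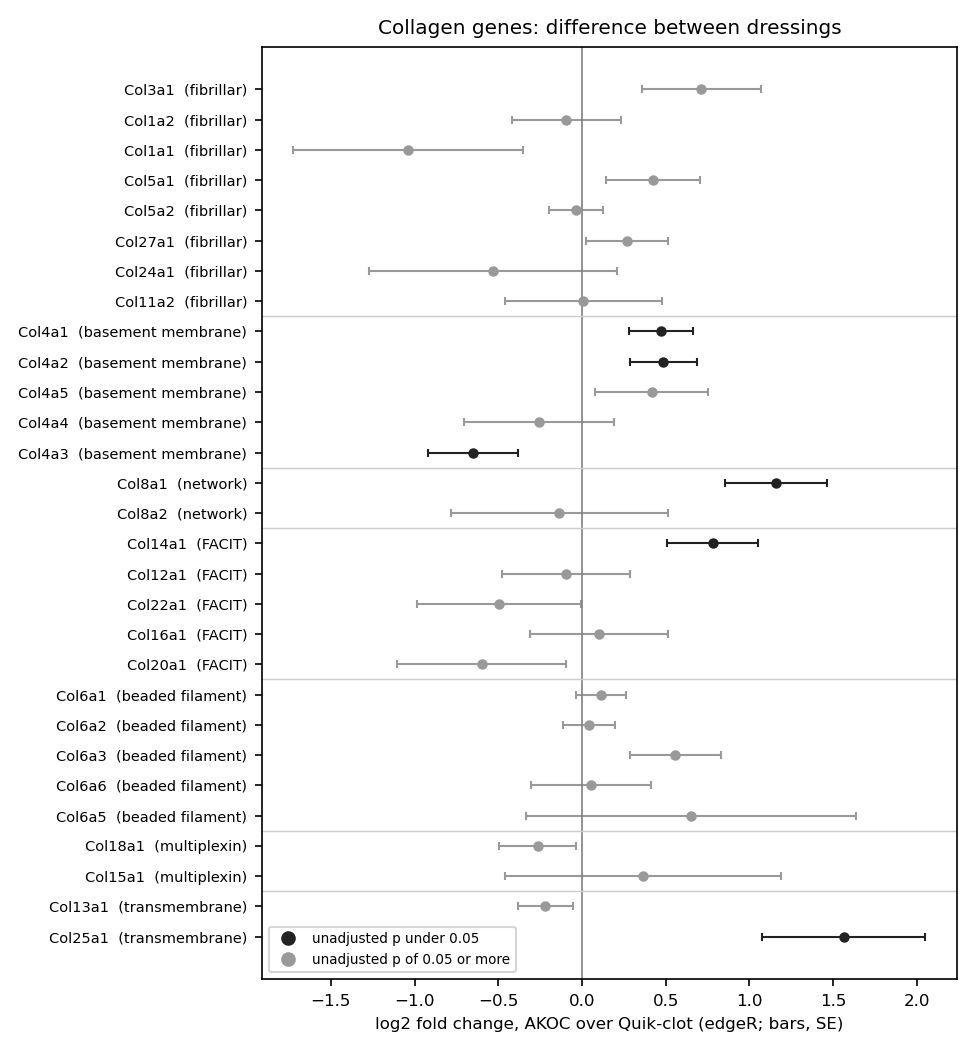
Log2 fold change of AKOC over Quik-clot for the 29 tested collagen genes by class, with bars for the standard error of the edgeR fit and black for an unadjusted p under 0.05. Col25a1 (1.56), Col8a1 (1.16) and Col14a1 (0.78) lie furthest right, Col1a1 (-1.04) and Col4a3 (-0.65) furthest left, and no gene passed the adjusted threshold.

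Type VI collagen forms beaded filaments around cells. The log2 fold change was above 0 for each of its 5 tested genes (median 0.11), but Col6a2 and Col6a6 were below 0 with library totals. Col6a1 stood at 22.1, 27.3 and 28.9 CPM after Quik-clot and at 30.5, 23.9 and 30.2 CPM after AKOC. Col6a2 stood at 13.04, 16.1 and 17.0 CPM after Quik-clot and at 16.0, 13.6 and 17.8 CPM after AKOC. Their log2 fold changes were 0.11 ± 0.15 and 0.04 ± 0.15, the narrowest errors of the family. Col6a3, the long chain of the same filaments, stood at 3.63, 6.99 and 5.75 CPM after Quik-clot and at 8.19, 6.35 and 9.57 CPM after AKOC (0.56 ± 0.27, unadjusted p = 0.0762, adjusted p = 0.435 in edgeR). The alternative chain Col6a6 stood at 1.09, 1.42 and 0.973 CPM after Quik-clot and at 1.64, 0.721 and 1.25 CPM after AKOC (0.06 ± 0.36). Col6a5, another alternative chain, ran from 0.0801 to 1.62 CPM over all 6 libraries (0.65 ± 0.99). In both genes the groups overlapped.

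Col18a1, with a mean of 117 FPKM, had the highest level of the family, ahead of Col3a1 at 21.6 FPKM. It encodes the precursor of the vessel inhibitor endostatin. Its FPKM was 142, 97.2 and 150 after Quik-clot and 106, 106 and 98.6 after AKOC, and the multiplexins, Col18a1 with the scarce Col15a1, took 58.2% to 78.8% of summed collagen FPKM. As CPM it stood at 633, 455 and 834 after Quik-clot and at 494, 585 and 520.1 after AKOC. The groups overlapped and the log2 fold change was -0.26 ± 0.23 (adjusted p = 0.648 in edgeR). Col15a1, a multiplexin of vessel basement membranes, stood at 0.174, 0.390 and 0.378 CPM after Quik-clot and at 0.0674, 0.294 and 0.861 CPM after AKOC (0.36 ± 0.82).

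Of the transmembrane collagens, Col25a1 had the highest fold change of the family. Col25a1 (gene ID 687064), known as a component of amyloid plaques in brain, had 31, 16 and 8 counts after Quik-clot and 42, 38 and 70 after AKOC. These were 0.675, 0.367 and 0.216 CPM against 0.943, 1.01 and 1.83 CPM, and the groups did not overlap. The log2 fold change was 1.56 ± 0.49 (unadjusted p = 0.0146, adjusted p = 0.325 in edgeR). It ran from 1.20 to 2.08 with 1 library left out, with an unadjusted p of 0.0603 without AKOC replicate 3. Col13a1, found at cell junctions, stood at 9.34, 8.30 and 9.86 CPM after Quik-clot and at 9.38, 6.99 and 7.25 CPM after AKOC (-0.22 ± 0.16).

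**Figure D4:**
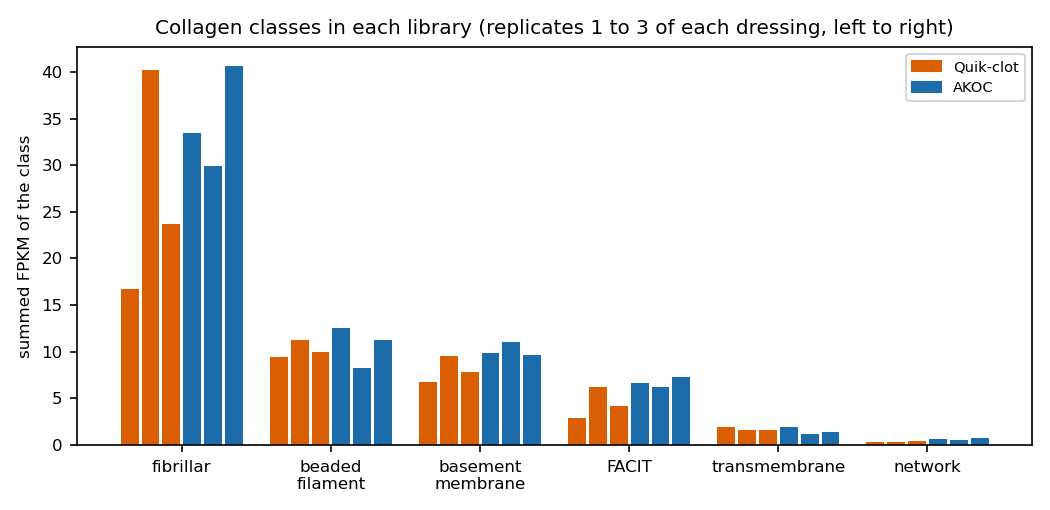
Summed FPKM of 6 collagen classes in each library, with replicates 1, 2 and 3 of Quik-clot and then of AKOC from left to right (bars from 0; multiplexins left out because Col18a1 exceeds the scale). The basement membrane and network sums lie higher in every AKOC library than in any Quik-clot library (9.65 to 11.0 against 6.76 to 9.52, and 0.579 to 0.705 against 0.346 to 0.379), while the fibrillar sums overlap. Most of the network sum is Col8a1 (mean 0.406 FPKM against 0.0932 for Col8a2, which overlapped). Col4a1 and Col4a2 (4.41 and 3.18 FPKM) make up most of the basement membrane sum.

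Single libraries were often the extreme ones. Quik-clot replicate 1 held the lowest CPM of the 6 libraries in 13 of 29 tested collagen genes, 44.8% against 20.4% of all genes. AKOC replicate 3 held the highest in 10, 34.5% against 17.0% of all genes. The median coefficient of variation of a collagen gene was 34.3% within Quik-clot and 21.2% within AKOC, against 17.0% and 13.8% over all genes tested.

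Markers of cells that make collagen differed between the same libraries. The summed level of 10 stellate cell markers was 184, 317 and 299.9 CPM with Quik-clot against 446, 320.1 and 342 CPM with AKOC, lowest in Quik-clot replicate 1. Of these 10, 8 had positive log2 fold changes (6 to 10 with 1 library left out), with Colec10 and Pdgfrb at 0.86 ± 0.31 and 0.77 ± 0.26 (adjusted p = 0.363 and 0.352 in edgeR). The 8 portal fibroblast markers summed to 82.8, 296 and 141 CPM after Quik-clot and to 443, 569 and 496 CPM after AKOC. Without Dpt that sum was 9.16, 15.1 and 16.3 CPM against 10.8, 12.3 and 18.3 CPM, so without it the groups overlapped. The defining markers Thy1 and Gli1 were below the filter, at 0.180 CPM or less in every library.

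Dpt, which encodes dermatopontin, a matrix protein that binds collagen fibrils, stood at 73.7, 281 and 125 CPM after Quik-clot and at 432, 557 and 478 CPM after AKOC (log2 fold change 1.61 ± 0.45, adjusted p = 0.308 in edgeR and 0.00755 in DESeq2). Within Quik-clot it was lowest in replicate 1 and highest in replicate 2, the order that Col3a1, Col14a1 and Col5a1 also had. Col4a1, Col5a2, Col6a3, Col8a2, Col15a1 and Col22a1 had that order too, with log2 fold changes from -0.50 (Col22a1) to 0.56 (Col6a3). The remaining tested collagen genes did not have it, and its share over all genes was not determined. Myofibroblast markers summed to 29.4, 29.7 and 34.7 CPM after Quik-clot and to 22.7, 27.4 and 31.7 CPM after AKOC, with 6 of 8 negative (5 with any 1 library left out). Their best-known member Acta2 ran from 4.29 to 6.05 CPM (-0.13 ± 0.18). Postn, a matrix protein of activated fibroblasts, stood at 0.326, 1.88 and 2.05 CPM after Quik-clot and at 0, 0.0534 and 0.261 CPM after AKOC, without overlap (adjusted p = 0.308 in edgeR and 0.0137 in DESeq2). In Postn as in Col1a1, Quik-clot replicates 2 and 3 were the highest libraries and AKOC replicate 1 the lowest.

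Of 6 sinusoidal endothelial markers 6 were negative (4 without Quik-clot replicate 3), with a median of -0.21 and sums of 423, 387 and 500.2 CPM against 406, 379 and 362 CPM. Of 4 vascular endothelial markers 3 were positive (1 without AKOC replicate 2), with a median of 0.10. They summed to 103, 109 and 119 CPM after Quik-clot and to 105, 117 and 96.3 CPM after AKOC. The 1 negative marker, Pecam1, was lower without overlap (-0.26 ± 0.11, unadjusted p = 0.0442, adjusted p = 0.391 in edgeR). Mesothelial markers summed to 16.0, 18.0 and 8.73 CPM after Quik-clot and to 27.5, 45.5 and 32.96 CPM after AKOC. Nearly all of that sum was Gpm6a (adjusted p = 0.281 in edgeR and 0.00437 in DESeq2). Upk3b, Upk1b, Wt1 and Lrrn4 were below the filter, at 0.189 CPM or less. Of these, Wt1 had 3, 4 and 7 counts after Quik-clot and 1, 0 and 1 after AKOC. Lrrn4 had 5, 1 and 2 counts after Quik-clot and 0, 0 and 0 after AKOC. Both were thus lower after AKOC without overlap, on few counts, while Upk3b overlapped. Msln, the other mesothelial marker tested, stood at 0.0871, 0.229 and 0.189 CPM after Quik-clot and at 0.539, 0.934 and 0.130 CPM after AKOC, with overlap (1.66 ± 0.76, unadjusted p = 0.0647, adjusted p = 0.42 in edgeR). Cholangiocyte markers summed to 11.3 to 20.8 CPM over all libraries, those of cartilage and bone to 0.481 to 1.76 CPM and those of skeletal muscle to 0.0871 to 0.229 CPM. The part of these cell types in the collagen differences was not tested.

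**Figure D5:**
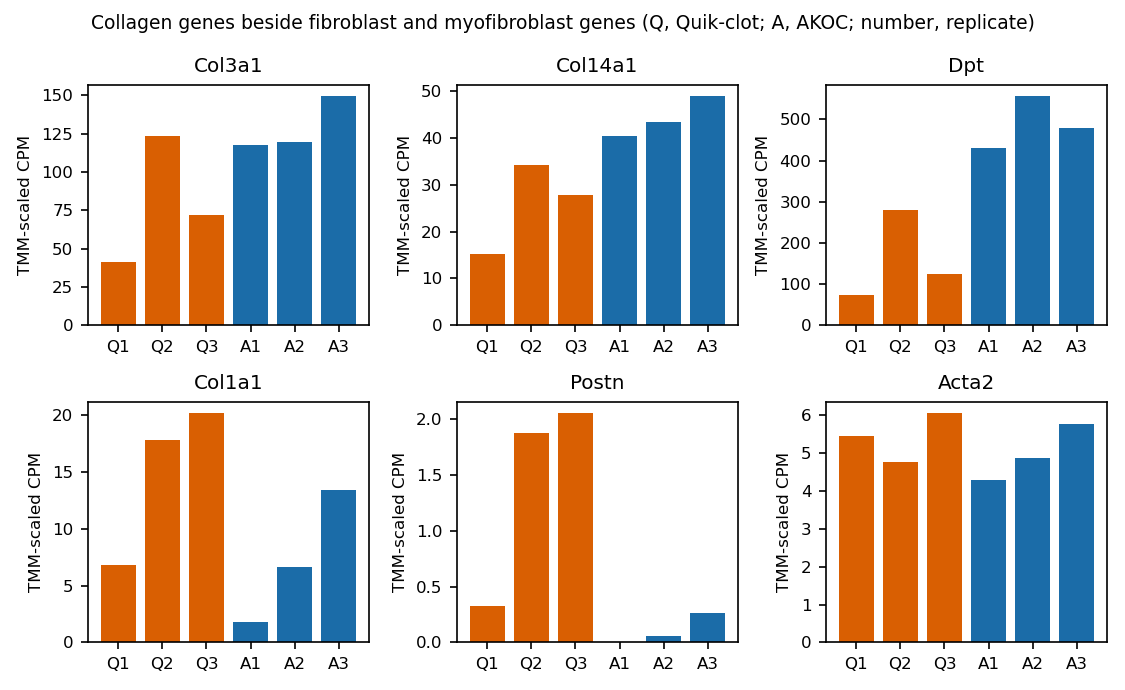
TMM-scaled CPM in each library (bars from 0; Q, Quik-clot; A, AKOC; the number is the replicate) of the collagen genes Col3a1, Col14a1 and Col1a1 beside the fibroblast gene Dpt and the myofibroblast genes Postn and Acta2. Col3a1, Col14a1 and Dpt are lowest in Quik-clot replicate 1 (41.1, 15.2 and 73.7 CPM), and Col1a1 and Postn are lowest in AKOC replicate 1 (1.77 and 0 CPM).

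Genes that make, fold, cross-link, bind and break down collagen were read from 7 lists of 67 genes, of which 55 were tested. With edgeR 0 passed over all genes, and 4 were higher (7.3% against 6.78% of all genes) and 2 lower (3.6% against 5.69%) at an unadjusted p under 0.05. Both shares lie near those of all genes. The median was 0.04, near that of all genes. Loxl4, which encodes a lysyl oxidase-like enzyme of collagen cross-linking, stood at 17.3, 20.6 and 24.2 CPM after Quik-clot and at 32.8, 36.5 and 40.4 CPM after AKOC, without overlap. Its log2 fold change was 0.82 ± 0.15 (unadjusted p = 0.000928, adjusted p = 0.246 in edgeR, adjusted p = 0.00281 in DESeq2). With 1 library left out the log2 fold change ran from 0.71 to 0.95. Of the other cross-linking genes, Loxl3 had 0.98 ± 0.51, Tgm2 0.28 ± 0.17 and Loxl2 0.28 ± 0.24. Of the 6 genes tested in this list 5 were positive, where 48.0% of all genes were. The 1 negative gene was Lox, at -0.49 ± 0.60, and its groups overlapped.

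Serpinh1, the collagen-specific chaperone of the endoplasmic reticulum, stood at 12.1, 15.6 and 12.8 CPM after Quik-clot and at 23.8, 17.8 and 20.4 CPM after AKOC. The groups did not overlap, with a log2 fold change of 0.61 ± 0.16 (unadjusted p = 0.0057, adjusted p = 0.295 in edgeR). Sparc, which binds collagen in the matrix, had 0.30 ± 0.12 (adjusted p = 0.389 in edgeR), and Hspa5, a general chaperone, -0.20 ± 0.15. Prolyl hydroxylases lay on both sides, P3h3 at 0.44 ± 0.18 and P4ha1, the catalytic subunit of prolyl 4-hydroxylase, at -0.40 ± 0.16 (adjusted p = 0.391 and 0.383 in edgeR). The remaining members of these lists with the smallest p were P4ha2 (-0.36 ± 0.23) and P3h2 (-0.43 ± 0.32), and among procollagen proteases Adamts2 (0.39 ± 0.25) and Adamts14 (-0.34 ± 0.34).

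Of 5 degradation genes tested, 4 had negative log2 fold changes (52.0% of all genes did) with a median of -0.62, and 0 had an unadjusted p under 0.05. Without Quik-clot replicate 3, 2 of 5 were negative and the median was 0.0755. Mmp9 (-1.60 ± 0.72) and the neutrophil collagenase Mmp8 (-1.63 ± 1.03) were highest in Quik-clot replicate 3, which held 3.30 and 13.1 CPM against 0.359 to 0.848 and 0.495 to 2.59 CPM in the other libraries. Without that library the log2 fold change was 0.49 for Mmp8 and -0.44 for Mmp9, and that of Mmp14 turned from -0.17 to 0.0755. Ctsk, a collagen-cleaving cathepsin, had -0.62 ± 0.32. The 1 positive gene was Mmp2, at 0.43 ± 0.31 (unadjusted p = 0.21 in edgeR). Its log2 fold change ran from 0.17 without Quik-clot replicate 1 to 0.64 without Quik-clot replicate 2. Of 8 collagen receptors tested, 5 were positive and 3 negative with a median of 0.08 (-0.0313 without AKOC replicate 2), among them Mrc2 at 0.73 ± 0.44, Itga1 at 0.16 ± 0.10 and Ddr1 at -0.42 ± 0.27. Of 10 genes of collagen transcription and the TGF-beta pathway, 8 were negative (6 to 9 with 1 library left out). Tgfb3, a ligand of that pathway, stood at 2.74, 3.87 and 4.19 CPM after Quik-clot and at 2.20, 2.16 and 2.14 CPM after AKOC, without overlap (-0.73 ± 0.22, unadjusted p = 0.012, adjusted p = 0.315 in edgeR).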

How the data were processed

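Liver RNA of 6 samples, 3 per dressing, was measured by RNA sequencing. The authors deposited read counts per gene without normalization, and the submitters' processing notes list fastp, HISAT2, HTSeq and mRatBN7.2. For versions, annotation and strand, the labels and headers gave nothing. The deposited FPKM were rebuilt from the counts to a largest relative error of 8.58e-07, so they add no second measurement. Genes were kept with the filterByExpr function of edgeR (minimum count 10, minimum total 15), which kept the collagen genes with 10 counts in at least 3 libraries. The test was the edgeR 4.0.16 quasi-likelihood F test in R 4.3.3, two-sided, on the dressing alone, with TMM scaling (trimmed mean of M values) and p adjusted by Benjamini-Hochberg across 13872 genes. A call needs an adjusted p under 0.05. The standard error is the log2 fold change divided by the root of F. With 3 libraries a side, the smallest two-sided p of an exact permutation test is 0.1. Members of a class are not replicates, so class sums and medians carry no test.

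The collagen genes, classes, lists and tests were chosen with earlier results of these data known. Every tested member is accounted for. Those given in every library are the 4 of highest FPKM in each class and every member at an unadjusted p under 0.05, the others by range. Handling genes named are up to 4 of smallest p per list. Col11a1, Mmp14, and Dpt and other markers named beside results, were chosen after their values were seen. Alternatives were DESeq2 1.42.0, limma 3.58.1 (voom with sample weights, and trend on log2(FPKM + 1) or log2(FPKM + 0.1)), other scalings and filters, the replicate number as a block, leaving out each library, and, chosen after seeing the data, the legacy quasi-likelihood method. The edgeR test was tested on simulated data. No pair of libraries of a dressing agreed within sampling noise. Promoters come from RefSeq (GRCr8), which is not the build of the counts, so no gene coordinates of the count table are given.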

Additional observations from a re-analysis of the deposited data

How the results depend on the processing

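Calls of collagen genes over all genes were 0 in each direction under every alternative run. At an unadjusted p under 0.05, the 5 higher became 1 with limma-trend on log2(FPKM + 1) and 2 with a pseudocount of 0.1, and ran from 1 to 7 with 1 library left out. The 1 lower became 2 with DESeq2, 0 with library totals only, 0 with both FPKM fits and 0 with the legacy method. It ran from 0 to 2 with 1 library left out, with 0 when Quik-clot replicate 3 and 2 when AKOC replicate 3 was dropped. Without a filter, Col4a3 no longer had an unadjusted p under 0.05, while Col11a1 did (unadjusted p = 0.0098 in edgeR). Col11a1 also did with DESeq2 (unadjusted p = 0.00517). The basement membrane median (0.42) was 0.0785 with DESeq2 and 0.0827 without a filter, where Col4a6 entered. For the FACIT class the median (-0.10) became 0.63 on log2(FPKM + 1), where Col14a1 was the only FACIT gene tested. No network gene passed the filter of that fit. The sign turned for Col11a2 (-0.0010) with DESeq2, for Col6a5 (-0.34), Col6a6 (-0.0582) and Col12a1 (0.0274) with limma-voom, and for Col6a2 (-0.0210), Col6a6 (-0.0040), Col11a2 (-0.0420) and Col16a1 (-0.0047) with library totals. On FPKM it turned for Col6a2 (-0.0227 and -0.0323) and Col6a6 (-0.0246). With 1 library left out the log2 fold change crossed 0 for Col6a2 (-0.0656 to 0.13), Col11a2 (-0.24 to 0.25), Col1a2 (-0.40 to 0.11), Col4a4 (-0.45 to 0.12), Col5a2 (-0.13 to 0.0618), Col8a2 (-0.47 to 0.35), Col12a1 (-0.40 to 0.13), Col22a1 (-0.77 to 0.17), Col24a1 (-0.94 to 0.29), Col6a6 (-0.24 to 0.31), Col16a1 (-0.13 to 0.50), Col6a5 (-1.05 to 1.16) and Col15a1 (-0.81 to 0.88). The cause was not tested. Same-numbered libraries did not deviate together (correlations -0.07, -0.08 and -0.20), and no library correlated best with its own number. With the replicate block the counts were 6 higher, Col3a1 being added, and 1 lower. That gene was then Col1a1 (-1.31 ± 0.28, adjusted p = 0.408 in edgeR) and no longer Col4a3 (-0.68 ± 0.30, adjusted p = 0.545 in edgeR). Col8a1, Col4a3 and Col25a1 rest on low counts, 27 to 91 per library for Col8a1, which limits their precision.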

Other observations

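Col11a1, left out by the count filter, had 51 counts over the Quik-clot libraries and 6 over the AKOC libraries. With no filter its log2 fold change was -2.97 ± 0.92 (unadjusted p = 0.0098, adjusted p = 0.375 in edgeR), and DESeq2 gave -3.05 ± 1.09 with no adjusted p. It is a fibrillar chain of cartilage that also enters type I fibrils, and like Col1a1 it was lowest in AKOC replicate 1, where it had 0 counts. Quik-clot replicate 3 held 30 of its 57 counts.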
